A study of Homo sapiens with 3 samples.

Results

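The PAX genes, PAX1 to PAX9, were taken by symbol from RNA-seq gene tables of human primitive neural progenitor cells (pNPCs), as all 9 members of the family among 62754 genes. The pNPCs were wild type and came, by the cell line label of each sample, from H1, a widely used embryonic stem cell line, although the growth protocol speaks of both hiPSCs and hESCs as sources. The series holds 1 group, with 3 replicates and no second condition. Per the labels, the cells grew in N2 and B27-RA medium with FGF2, LIF, the GSK3 inhibitor CHIR99021, the TGF-beta receptor inhibitor SB431542 and a ROCK inhibitor. Whether each replicate was a culture of its own is not in the labels, and the p-values below therefore cover the spread among 3 samples that may differ for technical reasons alone.

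PAX proteins are transcription factors that bind DNA through a paired domain, and PAX3, PAX4, PAX6 and PAX7 carry a full homeodomain as well. In vertebrate embryos PAX2, PAX5 and PAX8 act together at the isthmus, the signalling centre between midbrain and hindbrain. PAX3 and PAX7 mark the dorsal neural tube, neural crest and muscle progenitors, PAX6 the forebrain, eye and, with PAX4, the pancreatic islets, and PAX1 and PAX9 the sclerotome and pharyngeal tissue.

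In these pNPCs the isthmic and dorsal PAX genes were present and the forebrain, islet and mesenchymal ones were at or near 0. A gene was called detected at a TPM (a transcript level scaled for length and sequencing depth) that was 1 or more in each of the 3 libraries. By that rule 5 of the 9 PAX genes were detected, namely PAX8, PAX7, PAX3, PAX5 and PAX2, beside 23.0% of all genes in the files and 62.2% of protein-coding genes. All 3 isthmic members and both dorsal members were among them, and PAX1, PAX4, PAX6 and PAX9 were not. Without length scaling the family summed to 515, 457 and 383 CPM (the library's expected counts set to the same total in each) in replicates 1, 2 and 3.

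The libraries held 34658454, 38400092 and 30038114 expected counts. Replicate 1 stood apart from the others in its counts over genes, with a chi-square per degree of freedom of 82.5 against replicate 2 and 82.6 against replicate 3, where replicates 2 and 3 gave 19.4. Of 5 neural progenitor markers checked, SOX1, SOX2, SOX3, NES and VIM, all were detected, with SOX2 at 69.2 ± 26.2 TPM and SOX1 at 5.54 ± 2.46 TPM (mean ± SD, n = 3, as below). The pluripotency factor POU5F1 stood at 0.11 ± 0.030 TPM. In bulk RNA, fewer cells of a type and less RNA per cell cannot be told apart, and the PAX transcripts cannot be assigned to the same or to different cells. Intervals and floors in the text cover counting error only.

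**Figure D1:**
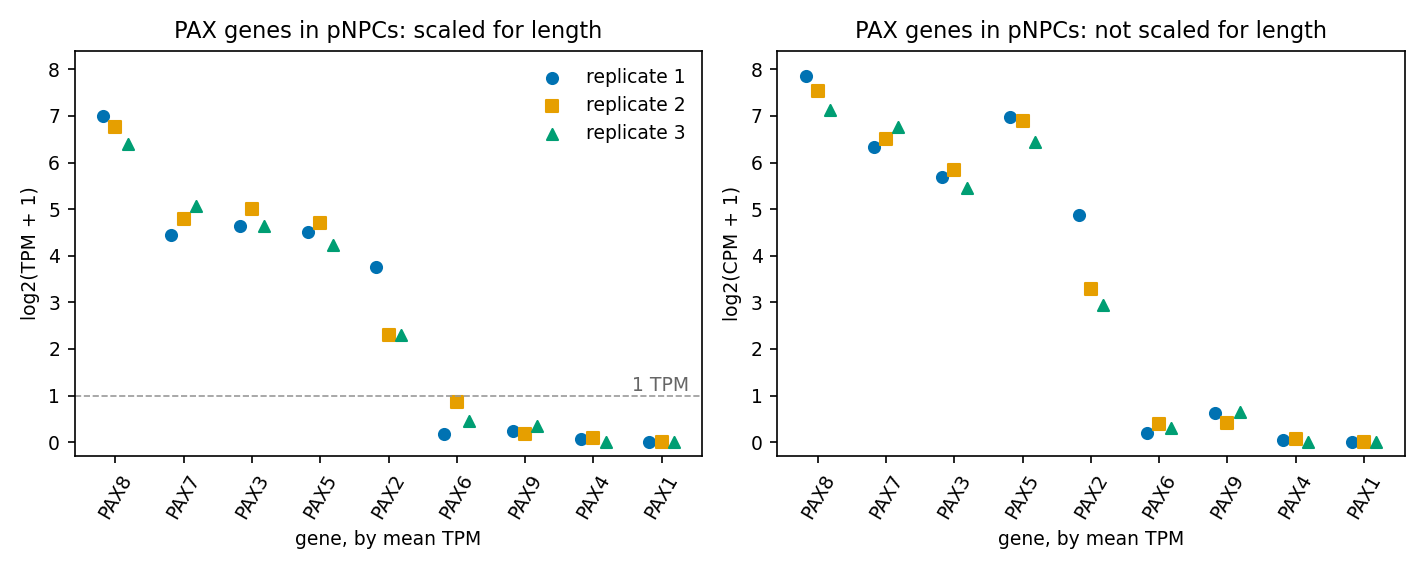
Levels of the 9 PAX genes in the 3 pNPC libraries, as log2(TPM + 1), scaled for length (left; dashed line at 1 TPM), and as log2(CPM + 1), not scaled for length (right), with 1 point per replicate and genes ordered by mean TPM. PAX8 is highest in every library on both scales, 5 genes lie above the dashed line, and PAX5 lies higher in the order on the right.

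PAX8 (ENSG00000125618.18, chromosome 2, 113215997 to 113278921, minus strand, GRCh38), the member also known from thyroid and kidney development, was the highest of the family. It reached 127, 108 and 83.6 TPM from 8009, 7099.9 and 4168 expected counts in replicates 1, 2 and 3, a mean of 106 ± 21.9 TPM. Its lowest library was still above the highest library of any other PAX gene. PAX8 exceeded 94.7%, 93.2% and 91.1% of protein-coding genes in TPM. PAX8-AS1, a noncoding gene that overlaps PAX8 on the opposite strand, stood at 8.31, 8.06 and 6.51 TPM. The ratio of PAX8 to PAX8-AS1 was 15.3, 13.4 and 12.8. The sources used here do not give strandedness, so reads from the overlap may have been split between both genes, and neither gene has a whole-number count in any library.

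PAX5 (ENSG00000196092.14, chromosome 9, 36833269 to 37034268, minus strand), the B cell lineage factor among the isthmic members, reached 21.9, 25.03 and 17.9 TPM, a mean of 21.6 ± 3.57 TPM. Its counts were 4305, 4518 and 2588, below PAX8 in each library, above PAX7 in replicates 1 and 2 and below it in replicate 3. By mean CPM, at 109 ± 20.3, PAX5 came next after PAX8, and by mean TPM it came after PAX7 and PAX3 as well. It exceeded 71.8%, 71.5% and 64.6% of protein-coding genes in TPM. The mean transcript length used for PAX5 was 7957, 7195 and 7399 bases. Of its 18 listed transcripts 12 matched GENCODE release 29 by identifier and version, and the longest of these measured 1487 bases. At least part of the PAX5 abundance was therefore assigned to longer transcripts outside that match, and its TPM depends on their length. The intronic microRNA genes MIR4476 and MIR4540 were listed at 0 in all 3 libraries, and a library of polyadenylated RNA does not measure mature microRNAs.

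PAX2 (ENSG00000075891.24, chromosome 10, 100735396 to 100829944, plus strand), which acts in the optic stalk and kidney as well as at the isthmus, was the lowest detected member and the most uneven. It stood at 12.5 TPM in replicate 1 and at 3.93 and 3.94 TPM in replicates 2 and 3, a mean of 6.80 ± 4.96 TPM. The counts behind these values were 986 (Poisson 95% interval 925 to 1050), 334 (299 to 372) and 200 (173 to 230). Replicate 1 was the high library, by 3.19-fold over the lowest in TPM. Its interval does not meet those of the others, but the intervals are of counts not scaled for depth. Those of replicates 2 and 3 do not meet either, where the TPM values were 3.93 and 3.94. The ratio of PAX8 to PAX2 was accordingly 10.2 in replicate 1, against 27.4 and 21.2 in replicates 2 and 3. The ratio of PAX5 to PAX2 was 1.75 in replicate 1, against 6.37 and 4.54 in the others. The ratio of PAX8 to PAX5 varied less, at 5.81, 4.30 and 4.67. In rank among protein-coding genes PAX2 exceeded 61.9% of them in replicate 1, against 44.9% and 44.5% in replicates 2 and 3.

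The dorsal members PAX7 and PAX3 were close to each other. PAX7 (ENSG00000009709.12, chromosome 1, 18630846 to 18748866, plus strand), known from neural crest and from muscle stem cells, reached 20.8, 26.9 and 32.3 TPM (26.6 ± 5.80) from 2771, 3427 and 3249 counts. PAX3 (ENSG00000135903.20, chromosome 2, 222199887 to 222298998, minus strand), a dorsal neural tube and neural crest factor, reached 24.0, 31.3 and 24.1 TPM (26.5 ± 4.18) from 1761, 2160 and 1283 counts. PAX7 was the lower of the pair in replicates 1 and 2 and the higher in replicate 3, with a ratio of PAX7 to PAX3 of 0.864, 0.858 and 1.34. PAX7 took the longer mean transcript, 5477, 5162 and 5222 bases, where the longest of its version-matched transcripts measured 2260. By CPM, without length scaling, PAX7 averaged 92.5 ± 14.4 and PAX3 49.9 ± 6.81, with PAX7 higher in each library. PAX7 exceeded 70.7%, 72.9% and 76.3% of protein-coding genes in TPM, and PAX3 73.4%, 76.0% and 70.4%. The ratio of PAX8 to PAX7 was 6.13, 4.01 and 2.58, lowest in replicate 3, and that of PAX8 to PAX3 was 5.29, 3.44 and 3.47, lowest in replicate 2. CCDC140, which overlaps the start of PAX3 over 852 bases, stood at 1.05, 1.14 and 0.86 TPM.

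PAX6 (ENSG00000007372.25, chromosome 11, 31789026 to 31817961, minus strand), a factor of forebrain progenitors and of the eye, stayed below 1 TPM in every library. It had 0.13, 0.81 and 0.38 TPM from 5.28, 12 and 7 expected counts (95% intervals 1.78 to 12.1, 6.20 to 21.0 and 2.81 to 14.4). The intervals overlap, but they are of counts not scaled for depth and are no test of a difference between libraries. The mean transcript length assigned to PAX6 was 1791, 825 and 1159 bases, where its longest matched transcript measured 6944. With so few reads these lengths rest on a handful of fragments, and they enter the TPM. ELP4, an elongator subunit gene whose end overlaps that of PAX6, stood at 9.79 ± 1.84 TPM, and the antisense gene PAUPAR was listed at 0. The islet factor PAX4 (ENSG00000106331.19, chromosome 7, 127610292 to 127618142, minus strand) had 1, 2 and 0 counts, or 0.05, 0.06 and 0 TPM.

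Of the members of mesenchyme, PAX9 (ENSG00000198807.13, chromosome 14, 36657568 to 36679362, plus strand), a factor of pharyngeal pouches and teeth, had 0.19, 0.13 and 0.27 TPM from 18.8, 13.0 and 17.1 expected counts. These intervals overlap as well, the widest bounds being 6.89 and 29.4 counts. The mitochondrial carrier gene SLC25A21, which overlaps the end of PAX9, stood at 3.47 ± 0.085 TPM. PAX1 (ENSG00000125813.15, chromosome 20, 21705664 to 21718481, plus strand), a sclerotome factor, had 0 counts in all 3 libraries. At 3 counts per library this allows up to 0.0490, 0.0486 and 0.0625 TPM.

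In order of mean TPM the genes ran PAX8, PAX7, PAX3, PAX5, PAX2, PAX6, PAX9, PAX4 and PAX1. Neighbours were compared as differences of log2(TPM + 1) within each library (pseudocount 1, a scale that understates differences of low genes). PAX8 lay above PAX7 by 1.96 ± 0.61, in 3 of 3 libraries, and their ranges did not overlap. PAX7 and PAX3 differed by less than their spread, at -0.0018 ± 0.36. PAX3 lay above PAX5 by 0.28 ± 0.14 in 3 of 3 libraries, although the ranges of TPM of both genes overlap, and by CPM the difference was -1.11, with PAX5 higher. PAX5 lay above PAX2 by 1.70 ± 0.85 and PAX2 above PAX6 by 2.29 ± 1.14, each in 3 of 3 libraries and without overlap. PAX6 and PAX9 differed by less than their spread, at 0.24 ± 0.39. The order was set by the same values, and an exact sign-flip test over 3 libraries cannot go below p = 0.25, so no test is given.

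**Figure D2:**
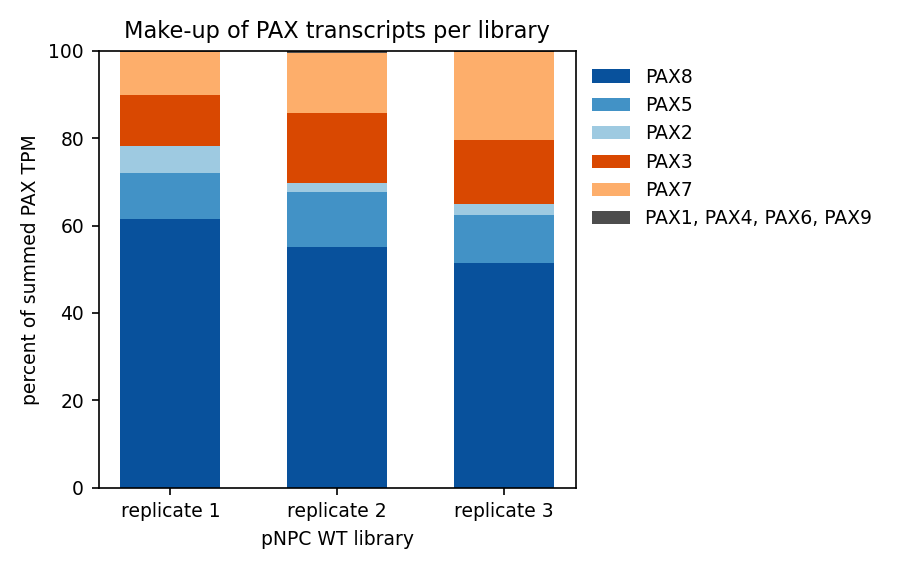
Percent of the summed PAX TPM taken by each gene (stacked bars) in each of the 3 pNPC libraries. The blue isthmic genes take most of every bar, with 78.2%, 69.8% and 64.9% in replicates 1, 2 and 3, and the 4 undetected genes are at most a thin edge at the top.

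By subgroup the isthmic genes PAX2, PAX5 and PAX8 made up 78.2%, 69.8% and 64.9% of the summed PAX TPM, a mean of 70.9% ± 6.72. PAX3 and PAX7 made up 21.7%, 29.7% and 34.7%, a mean of 28.7% ± 6.59. PAX4 and PAX6 took 0.255% ± 0.18 and PAX1 and PAX9 0.108% ± 0.052. PAX8 alone took 61.5%, 55.0% and 51.4%, and PAX7 10.0%, 13.7% and 19.9%. PAX3 took 11.6%, 15.99% and 14.8%, PAX5 10.6%, 12.8% and 11.02%, and PAX2 6.06%, 2.01% and 2.43%. The isthmic share was thus highest and the dorsal share lowest in replicate 1, the library that stood apart. In summed TPM the isthmic subgroup stood at 162, 137 and 105, and the dorsal subgroup at 44.8, 58.1 and 56.4.

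Whether a PAX gene varied between replicates more than genes of like level was tested across all genes in edgeR. PAX2 did, with an adjusted p of 0.00089, among 6 PAX genes that passed the filter on low counts. Over all 17046 genes tested, 1.59% were called. PAX8 (unadjusted p = 0.13), PAX5 (0.29), PAX3 (0.52), PAX7 (0.54) and PAX9 (0.61), each with an adjusted p of 1.00 in edgeR, were not called. In replicate 1 the log2 CPM of PAX2 exceeded the average of replicates 2 and 3 by 1.91, where 1.83% of the genes tested were at least 1 higher. The PAX2 call was lost without replicate 1, where the adjusted p in edgeR was 1.00, and without replicate 3, where it was 0.082. Without replicate 2 it held, at 0.028. Leaving out a replicate leaves a single degree of freedom.

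**Figure D3:**
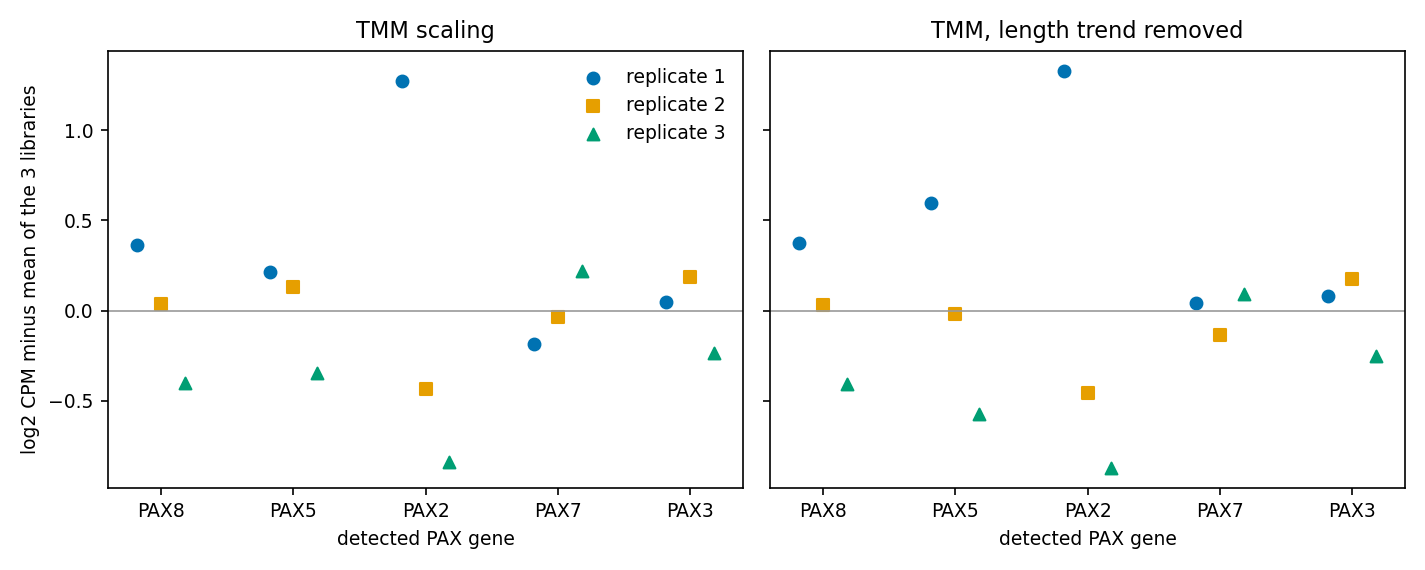
Log2 CPM of the 5 detected PAX genes in each library minus the mean of the 3 libraries, with TMM scaling (left) and after also taking out a lowess curve of counts against gene length per library (right). Replicate 1 is highest for PAX8, PAX5 and PAX2 in both panels, and replicate 3 is lowest for the same genes and for PAX3.

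The differences of PAX8 and PAX5 between libraries were smaller than that of PAX2 and did not pass the test. In replicate 1 PAX8 exceeded the average of replicates 2 and 3 by 0.55 and PAX5 by 0.32 log2 CPM, and in replicate 3 they differed from the average of replicates 1 and 2 by -0.60 and -0.51. In replicate 2 PAX8 and PAX5 lay 0.056 and 0.19 above the average of the other libraries, where PAX2 lay at -0.65, and by TPM PAX5 was highest in replicate 2. PAX3 lay 0.07 above and PAX7 lay at -0.28 in replicate 1. In all, 5 of the 6 PAX genes tested were higher in replicate 1, beside 49.5% of all genes tested, and PAX7 was lower, beside 50.5%. The 5 include PAX9, at 0.30, which was not detected by TPM. By log2(TPM + 1) only 3 of the 6 were higher in replicate 1. With the trend of counts on gene length removed PAX5, the member with the longest transcripts, lay 0.89 above in replicate 1 and was called for excess spread in edgeR (adjusted p = 0.022), and PAX7 turned to 0.067. The part of library quality or cell make-up in these differences was not tested.

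Most detected isthmus genes outside the family also had their highest value in replicate 1. Of a list of 11 isthmus genes 9 were detected (81.8%, beside 62.2% of protein-coding genes and 23.0% of all genes). The median of the list was 4.76 ± 0.72 log2(TPM + 1), where protein-coding genes had 2.86 ± 0.18. EN2, an engrailed homeobox gene downstream of PAX2 and PAX5 in mouse, stood at 100.1, 76.8 and 57.0 TPM. The growth factor gene FGF18 stood at 91.4, 68.5 and 33.2 TPM and the homeobox gene GBX2 at 74.5, 75.0 and 36.0 TPM. Replicate 1 held the highest value of 7 of the 9 detected isthmus genes, beside 25.5% of all detected genes, and the summed TPM of the list was 464, 337 and 216. Markers of other kinds also differed between replicate 1 and the rest. Among the neural progenitor markers, SOX2, at 97.8, 46.3 and 63.4 TPM, and SOX3, at 85.8, 36.1 and 42.0 TPM, were highest in replicate 1. So was SOX1, at 8.16, 3.28 and 5.19 TPM. NES, at 157, 195 and 191 TPM, was lowest in replicate 1, and VIM, at 1899, 2113 and 1724 TPM, was highest in replicate 2. The mesenchyme and crest genes PRRX1, at 86.2, 294.1 and 239 TPM, and TWIST1, at 142, 239 and 187 TPM, were lowest in replicate 1. Crest genes did not all go this way. SOX10, picked once values were known, had 29.1, 22.4 and 15.15 TPM and FOXD3 7.17, 6.56 and 4.44 TPM, each highest in replicate 1. All 4 detected genes of the sclerotome, pharyngeal and palate list, PRRX1 and TWIST1 among them, were lowest there, beside 56.0% of all detected genes. The summed TPM of that list was 275, 595 and 485. The part of these markers in the PAX differences was not tested. WNT1, a ligand of the midbrain side of the boundary, had 0.02, 0.23 and 0.32 TPM, and OTX2, a forebrain and midbrain factor, had 0.83, 1.68 and 1.49 TPM.

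Of 12 neural crest and dorsal neural tube genes that accompany PAX3 and PAX7, 12 were detected, beside 62.2% of protein-coding genes and 23.0% of all genes. The median of the list was 5.48 ± 0.38 log2(TPM + 1). MSX1, a target of BMP signalling, had 74.1, 199.7 and 158.7 TPM. The zinc finger genes ZIC2 and ZIC1 stood at 118 ± 19.7 and 99.0 ± 24.8 TPM. The lowest of the list were FOXD3, a crest specifier, at 6.06 ± 1.43 TPM, and MITF, the melanocyte factor that PAX3 activates, at 2.52 ± 0.13 TPM. Replicate 1 had the lowest value of 6 of these 12 genes, beside 56.0% of all detected genes. It had the highest value of 3, SOX10, FOXD3 and ZIC2, beside 25.5% of all detected genes. Muscle progenitor genes, the other known setting of PAX3 and PAX7, were detected in 2 of 9 cases (22.2%, beside the same 62.2% and 23.0%). These were the muscle intermediate filament gene DES at 4.75 ± 0.62 TPM and the receptor gene MET at 1.47 ± 0.15 TPM. TBX6 stood at 0.25 ± 0.070 TPM, and LBX1 and the myoblast fusion gene MYMK had 0 counts, which allows up to 0.0981 and 0.350 TPM. The myogenic factor genes MYF5 and MYOD1, picked once values were known, stood at 0.013 ± 0.023 and 0.010 ± 0.017 TPM.

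**Figure D4:**
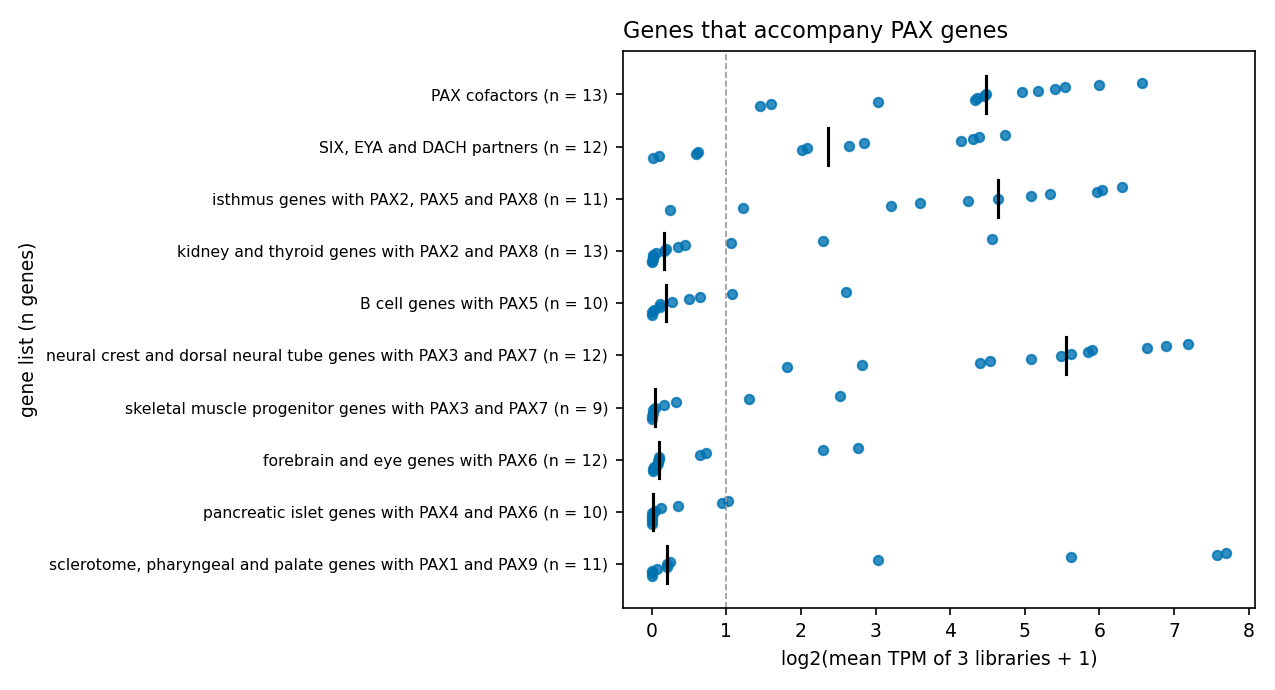
Log2(mean TPM of 3 libraries + 1) of each gene (points) in 10 lists of genes that accompany PAX genes in tissues that use them, with the list median as a black line and 1 TPM as a dashed line. Medians of the cofactor, partner, isthmus and crest lists lie right of the dashed line, and those of the other 6 lists lie left of it.

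Genes of the other tissues that use PAX2, PAX5 and PAX8 were mostly below detection, at 15.4% of the kidney and thyroid list and 10.0% of the B cell list detected, beside 23.0% of all genes and 62.2% of protein-coding genes. Of 13 kidney and thyroid genes 2 were detected, SALL1 at 22.5 ± 5.77 TPM and EMX2 at 3.91 ± 0.47 TPM, followed by the receptor gene RET at 1.09 ± 0.37 TPM, while LHX1 stood at 0.0067 ± 0.012 TPM and the iodide transporter gene SLC5A5 had 0 counts (floor 0.0810 TPM). Of 10 B cell genes 1 was detected, EBF1, at 5.06 ± 1.49 TPM, a factor that mesenchymal cells also express. The B cell receptor genes CD79B and CD79A stood at 1.11 ± 0.58 and 0.57 ± 0.065 TPM, and MS4A1 and VPREB1 had 0 counts (floors 0.104 and 0.394 TPM). PAX5 and PAX8 thus stood at their levels with most of the defining genes of B cells, kidney and thyroid near 0.

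Of the forebrain and eye list 16.7% was detected, of the islet list 0% and of the sclerotome, pharyngeal and palate list 36.4%, each beside 62.2% of protein-coding genes and 23.0% of all genes. Forebrain and eye genes were detected in 2 of 12 cases, LHX2 at 2.14, 6.65 and 8.65 TPM and EMX2, also in the kidney list, at 3.91 ± 0.47 TPM. The lens gene CRYAA stood at 0.66 ± 0.29 TPM, and SIX3, a factor of the anterior forebrain, at 0.013 ± 0.012 TPM. Of 10 islet genes 0 were detected, with NKX6-1 at 1.03 ± 0.76 and ISL1 at 0.28 ± 0.066 TPM, and with 0 counts for the glucagon gene GCG (floor 0.256 TPM). The genes that accompany PAX1 and PAX9 were uneven. PRRX1, TWIST1 and SOX9, which cranial mesenchyme and neural crest also express, stood at 206 ± 107.7, 189 ± 48.6 and 48.2 ± 7.55 TPM. The homeobox gene MEOX1, picked once values were known, reached 7.21 ± 1.46 TPM, so 4 of 11 were detected. FOXC2 stood at 0.0033 ± 0.0058 TPM and the sclerotome gene UNCX had 0 counts (floor 0.0809 TPM).

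Of 13 genes of PAX cofactors 12 were detected (92.3%, beside 62.2% of protein-coding genes and 23.0% of all genes), with a median of 4.57 ± 0.25 log2(TPM + 1). DAXX, which binds PAX3 and PAX5, stood at 93.8 ± 9.06 TPM, the Groucho corepressor gene TLE1 at 62.8 ± 1.74 TPM, and PAXBP1, which links PAX3 and PAX7 to chromatin enzymes in mouse, at 25.2, 47.8 and 63.2 TPM. The lowest were MEOX2, with 4.13, 1.33 and 0.61 TPM, and TLE2, at 1.73 ± 0.38 TPM. Of 12 partner genes of the EYA, DACH and sine oculis homeobox families, whose products form a regulatory network with PAX factors, 8 were detected, a share of 66.7% that is near the 62.2% of protein-coding genes. EYA3, SIX5 and EYA1 led at 25.6 ± 4.57, 19.9 ± 0.91 and 18.8 ± 6.06 TPM, and SIX6 and SIX3 were lowest at 0.073 ± 0.075 and 0.013 ± 0.012 TPM.

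Among the 108 list genes, those whose level over the 3 libraries was nearest to a PAX gene (smallest Euclidean distance of log2(TPM + 1), a description over 3 points that share depth and library) were as follows. ZIC2 (distance 0.41) and ZIC1 (0.61) were nearest to PAX8, and OLIG3 (0.23) and RB1 (0.38) to PAX5. EYA3 and HIRA were nearest both to PAX7 (0.17 and 0.42) and to PAX3 (0.38 and 0.42). PAX2 had no neighbour as close, with SP8 at 0.95 and FOXD3 at 0.96. SP8, like PAX2, was highest in replicate 1, at 11.1, 6.65 and 6.95 TPM.

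Promoter sequence, from 250 bases before to 50 after a RefSeq start (GRCh38.p14), is shown for the most upstream start of PAX8, PAX5, PAX6 and PAX4. PAX8 was the highest member. Among most upstream windows that of PAX5 was richest in CpG, that of PAX6, not detected, was rich, and that of PAX4, not detected, was poorest. The windows shown lie on the minus strand at chr2:113278872-113279171, chr9:37034219-37034518, chr11:31817912-31818211 and chr7:127618093-127618392. They read 5′ to 3′ along the gene, and capitals mark CpG.
PAX8: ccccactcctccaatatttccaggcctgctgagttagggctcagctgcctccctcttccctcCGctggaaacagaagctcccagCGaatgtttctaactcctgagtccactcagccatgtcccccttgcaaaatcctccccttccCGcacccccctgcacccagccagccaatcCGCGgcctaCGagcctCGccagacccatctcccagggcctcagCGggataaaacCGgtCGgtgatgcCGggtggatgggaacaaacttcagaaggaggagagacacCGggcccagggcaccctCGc
PAX5: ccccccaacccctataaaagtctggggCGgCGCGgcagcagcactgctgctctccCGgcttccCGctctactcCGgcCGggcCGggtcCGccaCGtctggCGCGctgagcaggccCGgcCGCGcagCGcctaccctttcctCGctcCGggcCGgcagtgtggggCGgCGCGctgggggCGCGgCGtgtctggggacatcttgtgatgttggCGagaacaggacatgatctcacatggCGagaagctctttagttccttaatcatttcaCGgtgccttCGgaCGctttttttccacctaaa
PAX6: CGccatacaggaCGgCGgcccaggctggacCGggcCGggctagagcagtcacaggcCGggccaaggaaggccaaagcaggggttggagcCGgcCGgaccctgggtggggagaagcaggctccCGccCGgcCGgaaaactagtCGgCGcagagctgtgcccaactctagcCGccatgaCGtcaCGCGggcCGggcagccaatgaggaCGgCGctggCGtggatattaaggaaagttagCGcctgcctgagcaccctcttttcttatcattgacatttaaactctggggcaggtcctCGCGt
PAX4: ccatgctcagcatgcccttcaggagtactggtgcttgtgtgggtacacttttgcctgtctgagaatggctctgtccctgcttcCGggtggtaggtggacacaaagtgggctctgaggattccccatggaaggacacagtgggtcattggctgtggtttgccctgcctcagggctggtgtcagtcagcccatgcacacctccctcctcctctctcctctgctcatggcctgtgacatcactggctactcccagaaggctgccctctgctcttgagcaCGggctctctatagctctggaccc

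The PAX8 window holds 13 CpG, that of PAX5 30, that of PAX6 24 and that of PAX4 2, beside a median of 14 over 35116 promoter windows of the same length. PAX6 has 9 listed starts, and its window at chr11:31804992-31805291 holds 32 CpG, more than that of PAX5. RefSeq windows were matched for 8 of the 9 genes, PAX1 being the other. Over the most upstream window of these 8 the count ran between 2 and 30 with a median of 20, and PAX9, which was not detected, had 19, PAX3 and PAX7 21 each and PAX2 14. Detected and undetected PAX genes thus overlapped in CpG count. The motif CCAAT, searched on both strands, was found in 5 of the 8 windows (PAX3, PAX4, PAX6, PAX7 and PAX8) and in 34.6% of all windows. TATAAA, searched likewise and sharing no full match with CCAAT, was found in 1, that of PAX5, and in 11.5% of all windows. A match of letters is a description and not a measured site.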

How the data were processed

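RNA-seq gene tables of 3 pNPC libraries were used, 1 file per sample, grouped by sample title. Per the labels, RNeasy columns and a NEBNext Ultra II DNA kit served to make libraries of polyadenylated RNA. The build GRCh38 and the tools RSEM 1.3.1, STAR 2.7.11a and Trim Galore 0.6.10 are in the submitters' processing notes without role or order, and the sources used here give no annotation release. Per the file headers, a deposited expected count estimates the reads of a gene, without normalization. The deposited TPM values carry the authors' scaling by effective length, with an equal sum in every library, and the deposited FPKM values for length and library size. The files' mean transcript length is weighted by estimated abundance. Reads that fit several genes are shared out by RSEM.

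The members, gene lists and tests were chosen with earlier results of these data known, and the genes looked at as markers of cell identity were picked after the data were seen. Of each list the 3 genes of highest and 2 of lowest mean TPM are named, except a few that are not reported here. Excess spread was tested in edgeR 4.0.16 (R 4.3.3) on rounded expected counts, with TMM and filterByExpr, by an intercept-only fit at the trended dispersion whose residual deviance was read from the chi-square distribution at 2 degrees of freedom, adjusted by Benjamini-Hochberg at 0.05. A single group allows no quasi-likelihood contrast. The test was tested on simulated data. Gene types and transcript lengths came from GENCODE release 29 (92.8% of identifiers matched without version), coordinates and promoters from RefSeq GRCh38.p14. Totals of 30038114 to 38400092 expected counts put 3 counts of PAX1 at no more than 0.0625 TPM. Alternatives were other TPM minimums and pseudocounts, FPKM, CPM, other scalings, no filter, a length correction and leaving out each replicate. Python 3.11.15, pandas 2.3.3 and matplotlib 3.10.9 were used. All sequences are from the reference, and no protein sequence was used here.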

Additional observations from a re-analysis of the deposited data

How the results depend on the processing

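The count of 5 detected PAX genes held at a TPM minimum of 0.5, in any library, by FPKM, by CPM and without each replicate, and became 4, without PAX2, at a minimum of 5. The isthmic share of PAX TPM was 67.6% in counts without length scaling, and 67.3% to 74.0% without 1 replicate. Without length scaling PAX3 minus PAX5 turned from higher in PAX3 to -1.11 on the log2 scale. The number of PAX genes called for excess spread was 1 with each scaling and without the filter, 2 (PAX2 and PAX5) with the length trend removed, and between 0 and 1 without 1 replicate. Over all genes the calls numbered 271, and 95 to 117 without 1 replicate, where a single degree of freedom remains. Of the 6 PAX genes tested, 5 were higher in replicate 1 by log2 CPM and 3 by log2(TPM + 1), and PAX7 turned from -0.28 to 0.067 with the length trend removed. Reasons for these shifts, the lost degree of freedom among them, were not tested. The lists held 52 detected members (genes in several lists counted in each), 58 at a minimum of 0.5, 39 at a minimum of 5, and 52 to 54 without 1 replicate, an alternative chosen after seeing the data. No paired analysis was possible because the labels give 1 group. Depth limits PAX1, PAX4, PAX6 and PAX9, whose counts did not pass 18.8 in any library.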
